A study of Mus musculus with 20 samples.

Results

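The cells described here are the natural killer (NK) cells of mouse kidneys after bilateral ischemia-reperfusion injury (IRI), taken as every cell that the deposited 20-library annotation names NK. They number 1496 of 136794 cells, or 1.09%, and 3 of the 19 clusters of that annotation are smaller. Kidneys came from male C57BL/6 mice of 10 to 12 weeks. The Control group holds 6 libraries, IRI short (23 min of ischemia) and IRI long (30 min) hold 2 libraries each at 1, 3 and 14 d, and 1 library each came from IRI long at 14 d with VX765 (100 mg/kg) or Liproxstatin (10 mg/kg). No transgene or deletion is given for any group, the labels call the first group only Control, and they name no vehicle for IRI long. Libraries are named below by the prefix of their cell names (norm1 to norm5 and Scl for Control, IRF1 to IRF12 for IRI), whose numbers are not replicate numbers. The cell names tie each library to a group only.

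NK cells are innate lymphocytes that kill stressed or infected cells without prior sensitization, by releasing granules that hold perforin and granzymes, and they secrete interferon gamma. In the kidney, cells that circulate and cells that stay in the tissue both occur, and NK cells are known for killing injured tubular epithelium. The usual markers of the cluster name are Nkg7, which encodes a granule membrane protein, and Gzma, which encodes granzyme A, and cytotoxic T cells also use both. Transcript counts were not analysed here, so the name NK was not checked against Nkg7 or Gzma and is that of the authors.

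Libraries held 2064 to 14320 cells with a median of 6637.5, and between 12 (norm1) and 353 (norm5) NK cells. The precision of each NK fraction is given as an exact 95% binomial (Clopper-Pearson) interval, which covers counting error only. The control library norm5 stood apart: it held 4.87% of all cells, 23.6% of all NK cells and 60.5% of the 583 NK cells of the Control group, and the main differences from Control are given with and without it. Cell barcodes, the short tags that name a droplet, also split the libraries. Among norm1 to norm4 and Scl, the 10 pairs of libraries shared 461 barcodes, and the 105 pairs among the other 15 libraries, which include norm5, shared 1441. The 75 pairs that join these 2 sets shared 75. The barcode set of a library and its group therefore overlap except for norm5. No barcode was shared by NK cells of different libraries, and 37 NK cells had a barcode that occurred in another library on a cell of another cluster.

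The first question was whether injury changed the NK fraction of all cells. The control libraries ranged from 0.303% to 5.30% with a median of 1.25%. They spread over a wide interval, with norm2 (0.303%), norm1 (0.304%) and Scl (0.475%) low, norm3 (2.02%) and norm4 (2.07%) higher, and norm5 highest at 5.30% (95% interval 4.77 to 5.86). After IRI short, the 2 libraries of 1 d held 0.443% and 0.462%, those of 3 d 1.42% and 1.98%, and those of 14 d 1.21% and 2.04%. After IRI long, the corresponding pairs were 0.328% and 0.242% at 1 d, 1.94% and 1.16% at 3 d, and 1.15% and 1.55% at 14 d. All IRI libraries lay below norm5, and the lowest of them, IRF5 of IRI long 1 d (0.242%, 95% interval 0.146 to 0.378), lay below every control library.

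**Figure D1:**
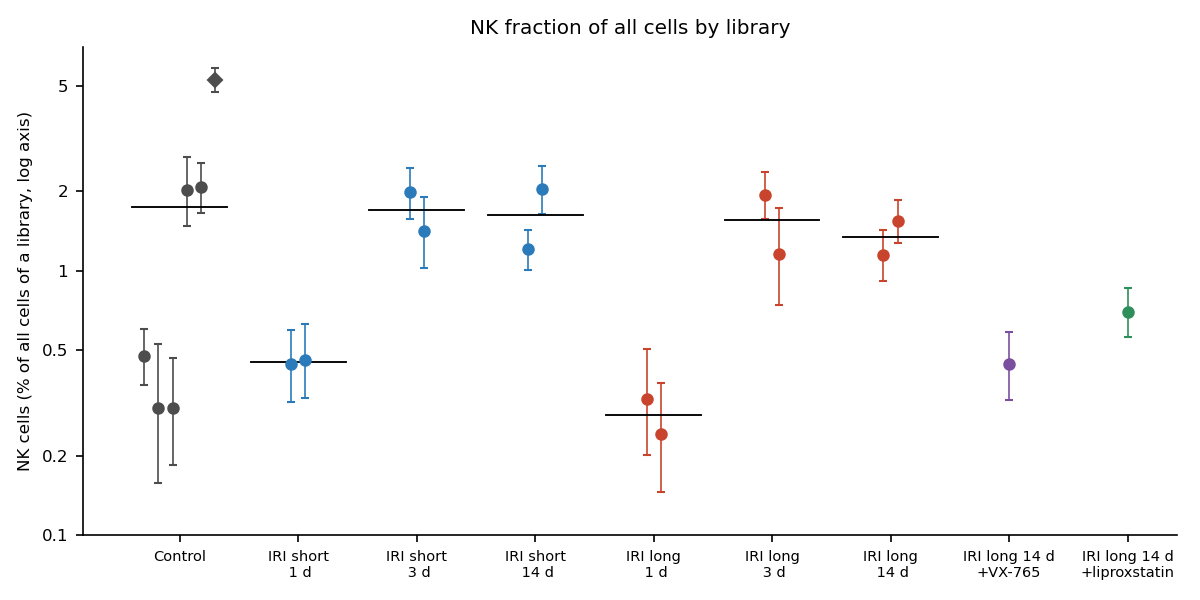
NK cells as percent of all cells (log axis) in each of the 20 libraries by group, with bars for the exact 95% binomial interval and a horizontal line for the mean of a group. The diamond is norm5 (5.30%); all 4 IRI libraries of 1 d sit between 0.242% and 0.462%, and the 8 IRI libraries of 3 and 14 d between 1.15% and 2.04%.

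Over all days, the NK fraction of all cells averaged 1.75% ± 1.93 (SD, n = 6) for Control. The means were 1.26% ± 0.70 (SD, n = 6) for IRI short and 1.06% ± 0.67 (SD, n = 6) for IRI long. The means differed by less than the SD of the control libraries. The SDs of IRI short and IRI long also hold the differences between days, which are given below. The difference from Control was -0.487 percentage points for IRI short and -0.683 points for IRI long (p = 0.706 and 0.530, exact permutation tests, two-sided). IRI long differed from IRI short by -0.196 points when labels were permuted within days (exact permutation test, p = 0.306). With Benjamini-Hochberg adjustment over the 9 tests of the 3 denominators used here, the adjusted p of these exact permutation tests were 0.741, 0.682 and 0.458. Without norm5, the difference from Control was 0.223 points for IRI short and 0.027 points for IRI long, so both turned positive.

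A linear model (limma) on the logit of each cluster's fraction, that is the natural logarithm of the odds of a cell being in the cluster, was fitted over all 19 clusters. The change of NK in IRI short against Control was 0.05 on the logit scale (95% confidence interval -0.85 to 0.95) and limma's adjusted p was 0.953. In the same comparison 63.2% of all clusters were called at an adjusted p under 0.05, and NK was not among them. For IRI long against Control the NK change was -0.19 (interval -1.10 to 0.71; limma adjusted p = 0.657; 73.7% of clusters called), and for IRI long against IRI short it was -0.24 (interval -1.15 to 0.66; adjusted p = 0.728; 26.3% called). Without norm5 the change against Control was 0.39 for IRI short and 0.15 for IRI long. With the barcode set as a term, the Control side rests on norm5, the only control library of the set of the IRI libraries. The change then became -1.64 for IRI short and -1.89 for IRI long, given as effect sizes only.

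Time after injury separated the IRI libraries. All 4 libraries of 1 d held a smaller NK fraction than any of the 8 libraries of 3 and 14 d, with a mean of 0.369% ± 0.103 (SD, n = 4) at 1 d and 1.56% ± 0.38 (SD, n = 8) later, a ratio of means of 4.22. This comparison was chosen after the values by day had been seen. Permuting days within each ischemia time, the difference of 1.19 percentage points gave p = 0.00444 (two-sided exact permutation test), the smallest that these 225 arrangements can give, and adjusted over all 19 clusters p = 0.0211 (exact permutation test). At this threshold 31.6% of the 19 clusters were called in either direction, and for 15.8% (NK, T cell and Macro) the libraries of 1 d and of later days did not overlap. Leaving out each of the 12 libraries in turn, the difference stayed between 1.12 and 1.25 points, with a p of at most 0.0133 (exact permutation test).

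The T cell cluster showed the same order. T cells made up 2.14% to 2.79% of all cells at 1 d and 3.63% to 10.9% at 3 and 14 d, a ratio of means of 2.91 (exact permutation test adjusted over 19 clusters, p = 0.0211). B cells overlapped, with 1.20% to 2.01% at 1 d and 1.85% to 5.16% later, a ratio of 1.76 (exact permutation test adjusted over 19 clusters, p = 0.169). The NK fraction of lymphoid cells, that is of T, B and NK cells together, was 7.96% ± 1.68 (SD, n = 4) at 1 d and 13.3% ± 1.98 (SD, n = 8) later, again with no overlap (exact permutation test, p = 0.00444, adjusted over 4 denominators 0.00593). Of the 3 lymphoid clusters, 33.3% did not overlap on this scale, which is NK alone. Of T and NK cells only, NK made up 8.15% to 17.1% at 1 d and 13.5% to 26.6% later, and this difference of 5.45 points did not pass the test (exact permutation test, p = 0.0844).

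**Figure D2:**
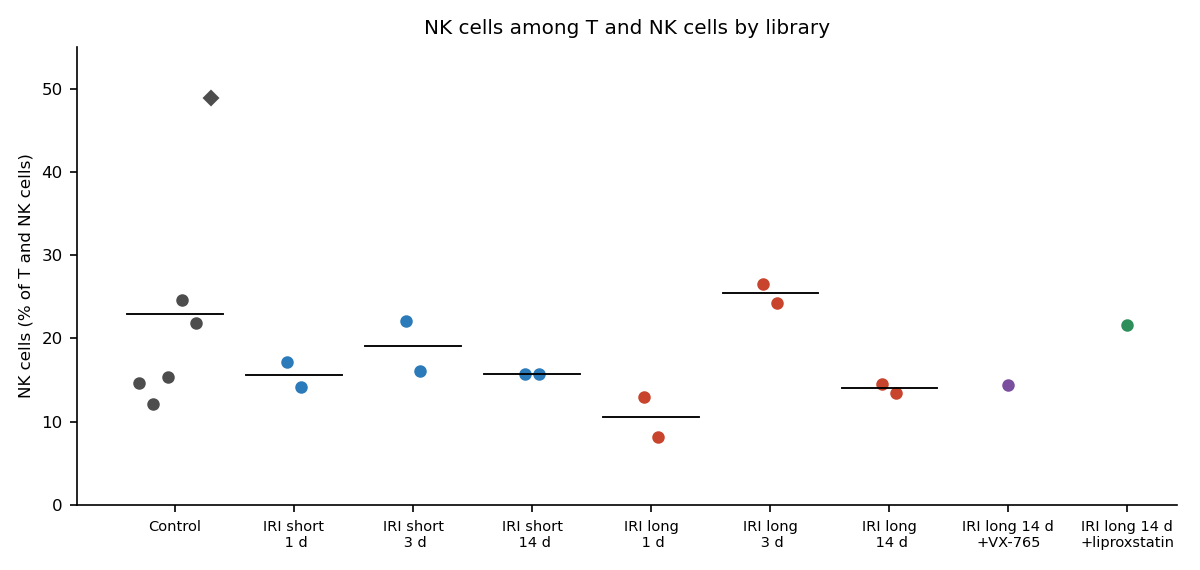
NK cells as percent of T and NK cells in each library by group (linear axis), with a line for the group mean and a diamond for norm5. The 2 libraries of IRI long 3 d lie at 26.6% and 24.2%, above the other IRI libraries, and norm5 lies at 48.9%.

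Within a single ischemia time, limma did not call the NK change between days. In IRI short, NK was 1.32 higher on the logit scale at 3 d than at 1 d (SE 0.74, limma adjusted p = 0.252; 5.26% of clusters called) and 1.25 higher at 14 d (SE 0.74, adjusted p = 0.367; 0% called). In IRI long, the differences were 1.68 at 3 d (SE 0.74, limma adjusted p = 0.118; 15.8% of clusters called) and 1.55 at 14 d (SE 0.74, adjusted p = 0.151; 15.8% called). The change from 1 to 14 d differed between IRI long and IRI short by 0.30 (interval -1.91 to 2.51; limma adjusted p = 0.871; 0% of clusters called), so a difference between the ischemia times was not detectable with these libraries. At 1, 3 and 14 d, NK in IRI long differed from IRI short by -0.46, -0.11 and -0.16 (limma adjusted p = 0.789, 0.967 and 0.924), while 0%, 0% and 21.1% of clusters were called.

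Against Control, no single day passed. With 2 against 6 libraries the smallest possible p is 0.0357, and the 12 exact permutation tests by day for all cells and lymphoid cells gave p of 0.25 to 0.964, all 0.964 after adjustment. NK was lowest relative to Control in IRI long 1 d, with a logit change of -1.27 (interval -2.54 to 0.01; limma adjusted p = 0.0892; 52.6% of clusters called). In IRI short 1 d the change was -0.80 (limma adjusted p = 0.293; 57.9% called). At 3 d it was 0.51 in IRI short and 0.41 in IRI long (limma adjusted p = 0.429 and 0.536; 63.2% and 78.9% called), and at 14 d 0.44 and 0.28 (limma adjusted p = 0.561 and 0.685; 47.4% and 63.2% called). These 4 positive values turned negative with the centred log-ratio of the cluster fractions (-0.28 and -0.24 at 3 d, -0.26 and -0.087 at 14 d, limma adjusted p of 0.666 to 0.873). They were also negative with the barcode set as a term (-1.18 and -1.29, then -1.25 and -1.42). At 1 d the barcode term gave -2.50 in IRI short and -2.96 in IRI long. With this term the Control side rests on norm5 alone, the control library with the highest NK fraction, so only effect sizes are given. The centred log-ratio at 1 d gave -1.32 in IRI short and -1.65 in IRI long (limma adjusted p = 0.043 and 0.0115). For IRI long 1 d without norm1, norm2 or Scl, each left out in turn, limma's adjusted p was 0.0345, 0.0321 and 0.0477. Except for IRF5 of IRI long 1 d (0.242%), which lay below every control library, the 1 d libraries lay among the 3 low control libraries. These, norm1, norm2 and Scl, held 0.303% to 0.475% NK cells. Without norm5 the control mean was 1.04% ± 0.93 (SD, n = 5), and the 4 IRI groups of 3 and 14 d lay 0.314 to 0.664 points above it, with no difference past the test (exact permutation tests, p of 0.429 to 0.571).

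Next, NK cells were related to the immune cells of the same library (T, B and NK cells, macrophages and both neutrophil clusters). NK cells made up 5.26% to 42.8% of immune cells in Control, with a median of 14.7%. After IRI short the values were 1.55% and 1.78% at 1 d, 3.86% and 4.01% at 3 d, and 3.84% and 4.75% at 14 d, and after IRI long 0.740% and 0.715%, 3.81% and 2.75%, and 1.53% and 2.40%. No IRI library reached the lowest control library. The mean fell from 17.6% ± 13.8 (SD, n = 6) for Control to 3.30% ± 1.31 (SD, n = 6) for IRI short and 1.99% ± 1.22 (SD, n = 6) for IRI long (exact permutation tests, p = 0.00216 for each, the smallest possible, adjusted 0.00974). Of the 6 immune clusters, 66.7% did not overlap between groups in each of these comparisons. Without norm5 the control mean was 12.6% ± 6.81 (SD, n = 5), and the difference from Control went from -14.3 to -9.26 points for IRI short and from -15.6 to -10.6 points for IRI long. With any library left out in turn, the exact permutation p of both differences was at most 0.0195.

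The other immune cells moved with this result. Macrophages and neutrophils together were 0.915% ± 0.497 (SD, n = 6) of a control library, 25.7% ± 5.57 (SD, n = 6) after IRI short and 43.2% ± 12.8 (SD, n = 6) after IRI long, and their part in the NK fraction of immune cells was not tested. The cluster named Fibro is not counted as immune here, although 93.1% of its cells found in the 18-library annotation had been named Mono_1 there, a monocyte name. Fibro made up 0.592% to 1.98% of all cells in the control libraries, 4.64% to 9.89% after IRI short and 6.85% to 20.9% after IRI long. With Fibro counted as myeloid, the NK fraction of immune cells differed from Control by -12.5 points in IRI short and -13.6 points in IRI long (exact permutation tests, p = 0.00216 for each). Per 100 non-immune cells, NK cells numbered 0.315 to 6.04 in Control, 0.621 to 3.92 in IRI short and 0.366 to 4.64 in IRI long. On this scale, with Fibro in the denominator, the means of IRI short and IRI long were 0.163 and 0.698 above that of Control (exact permutation tests, p = 0.922 and 0.53). Without norm5 they were 0.980 and 1.51 above it (exact permutation tests, p = 0.212 and 0.132), and with Fibro counted as immune and norm5 in, 0.434 and 1.65 (exact permutation tests, p = 0.680 and 0.247).

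IRI long had fewer NK cells among immune cells than IRI short, by 1.31 points when labels were permuted within days (exact permutation test, p = 0.00926, the smallest possible, adjusted 0.0278). The libraries of the 2 ischemia times overlapped, and 0% of the 6 immune clusters were free of overlap. The difference no longer passed without IRF11, IRF3, IRF1 or IRF5 (exact permutation p of 0.0741, 0.0741, 0.111 and 0.111). The test compares plain means of the 2 ischemia times, so with a library left out the days weigh unequally in them. These p values therefore cannot show whether the difference within days rests on single libraries. Nor did the difference pass when labels were permuted without regard to day (exact permutation test, p = 0.0996).

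**Figure D3:**
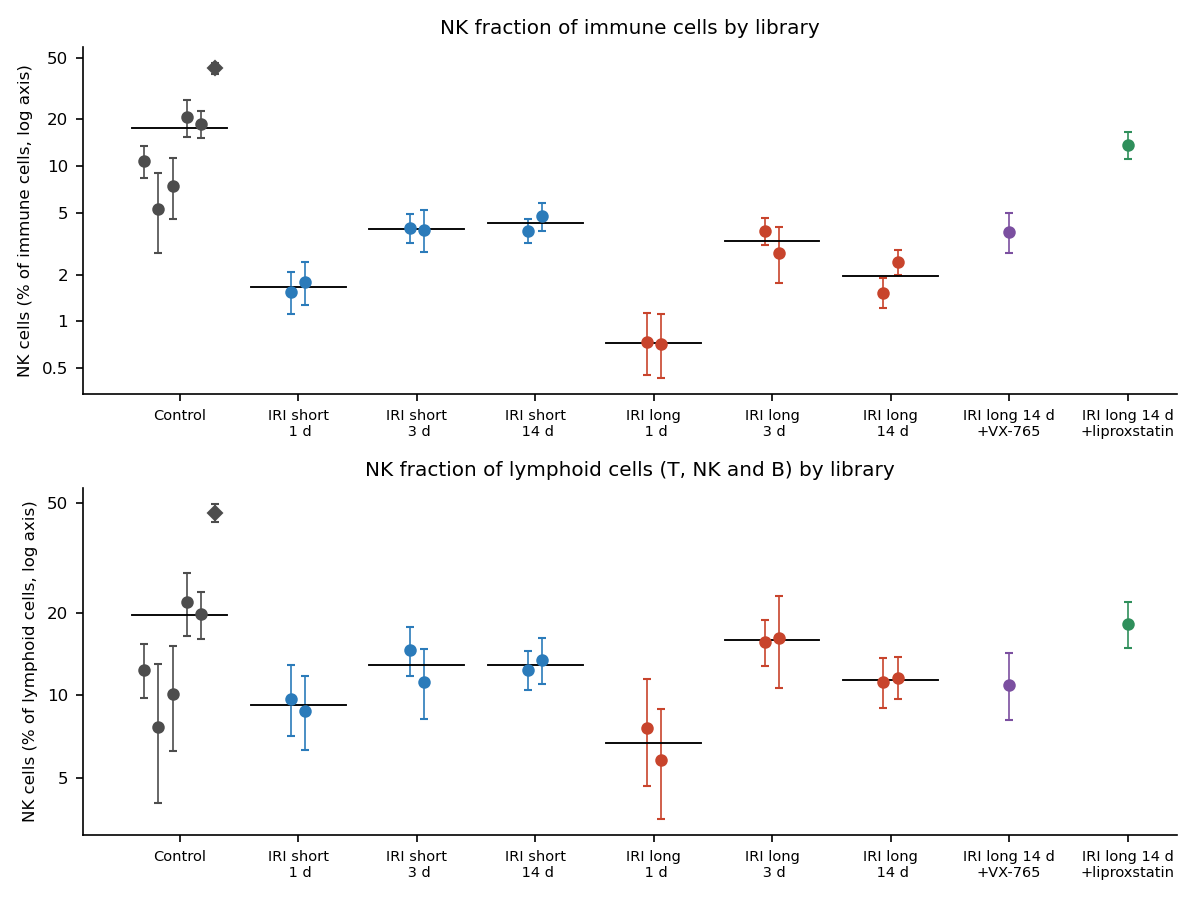
NK cells as percent of immune cells (upper panel) and of lymphoid cells (lower panel) in each library, on log axes, with exact 95% binomial intervals, lines for group means and a diamond for norm5. In the upper panel all control libraries (5.26% or more) lie above the IRI libraries without inhibitor (4.75% or less); in the lower panel the groups overlap.

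Relative to lymphoid cells alone, the groups overlapped. NK cells were 15.2% of the 9813 lymphoid cells of the series, beside 6024 T cells and 2293 B cells. Control libraries ranged from 7.69% (norm1) to 46.3% (norm5) with a mean of 19.7% ± 14.1 (SD, n = 6). IRI short libraries ranged from 8.77% to 14.6% with a mean of 11.7% ± 2.23 (SD, n = 6), and IRI long libraries from 5.81% to 16.1% with a mean of 11.3% ± 4.14 (SD, n = 6). The differences from Control of -7.98 and -8.35 points did not pass (exact permutation tests, p = 0.169 and 0.167), and without norm5 they were -2.66 and -3.03 points (exact permutation tests, p = 0.361 and 0.338). Nor did the -0.370 points between the ischemia times pass (exact permutation test, p = 0.741). The widest gap by day was in IRI long 1 d, whose libraries (7.58% and 5.81%) lay below all control libraries (exact permutation test, p = 0.25, and 0.0952 without norm5). Of the 3 lymphoid clusters, 33.3% did not overlap Control in either direction in this comparison, which is NK alone.

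The 2 inhibitor libraries are 1 per group, so no test was made. VX765 inhibits caspase-1, which drives pyroptosis, and Liproxstatin inhibits ferroptosis. NK cells were 47 of 10610 cells with VX765, or 0.443% (95% interval 0.326 to 0.589), and 88 of 12605 cells with Liproxstatin, or 0.698% (interval 0.560 to 0.859). The IRI long libraries of 14 d without inhibitor held 1.15% (interval 0.913 to 1.43) and 1.55% (interval 1.28 to 1.86). These intervals cover counting error within a library and not the spread between mice. The paper describes the inhibitor mice as a separate set of experiments, with injections before and after ischemia and its own vehicle group. Experiment, injection and inhibitor therefore cannot be told apart in this comparison. Of the control libraries, norm1 and norm2 lay below both inhibitor libraries, Scl between them, and norm3, norm4 and norm5 above. Of immune cells, NK cells were 3.77% with VX765 and 13.6% with Liproxstatin, beside 1.53% and 2.40% in the pair without inhibitor. Macrophages and neutrophils were 7.71% and 1.30% of all cells in the inhibitor libraries and 65.0% and 51.1% in that pair. Of lymphoid cells, NK cells were 10.9% with VX765 (interval 8.14 to 14.3), beside 11.2% and 11.6% in that pair, and 18.2% with Liproxstatin (interval 14.9 to 22.0).

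The name NK is absent from the cluster names of the earlier annotation of 18 libraries used here, so the same cells were followed back to it. The paper also subclustered the immune cells of these 18 libraries, with clusters named NK and NKT. Among those subclustered immune cells, not among all cells, it reports enrichment of NK cells in control kidneys. The nearest measure here is the NK fraction of immune cells. The paper also gated NK cells by flow cytometry. Those subcluster names were not used here. Of the 1361 NK cells in those libraries, 1044 (76.7%) had been named T cell_1 and 312 (22.9%) T cell_2, and 5 had other names (2 in GEC, the glomerular endothelial cluster, and 1 each in Macro, Myofib and PT S1). Read from the other side, 25.2% of the 4142 T cell_1 cells became NK and 69.4% became T cell. Of the 6396 T cell_2 cells, 4.88% became NK, 36.8% T cell and 40.5% PT, the proximal tubule cluster.

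The T cell_2 source was concentrated in norm5. There, 137 NK cells came from T cell_1 and 216 from T cell_2, and these 216 were 69.2% of all NK cells with that first name. The cluster T cell_1 gave 48.1% of its norm5 cells to NK and T cell_2 gave 32.5%. Without norm5, T cell_1 supplied 90.0% of NK cells. The share from T cell_1 was 38.8% in norm5, 71.7% in norm3, 75.0% in norm4, 89.7% in Scl and 90.0% in norm2.

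**Figure D4:**
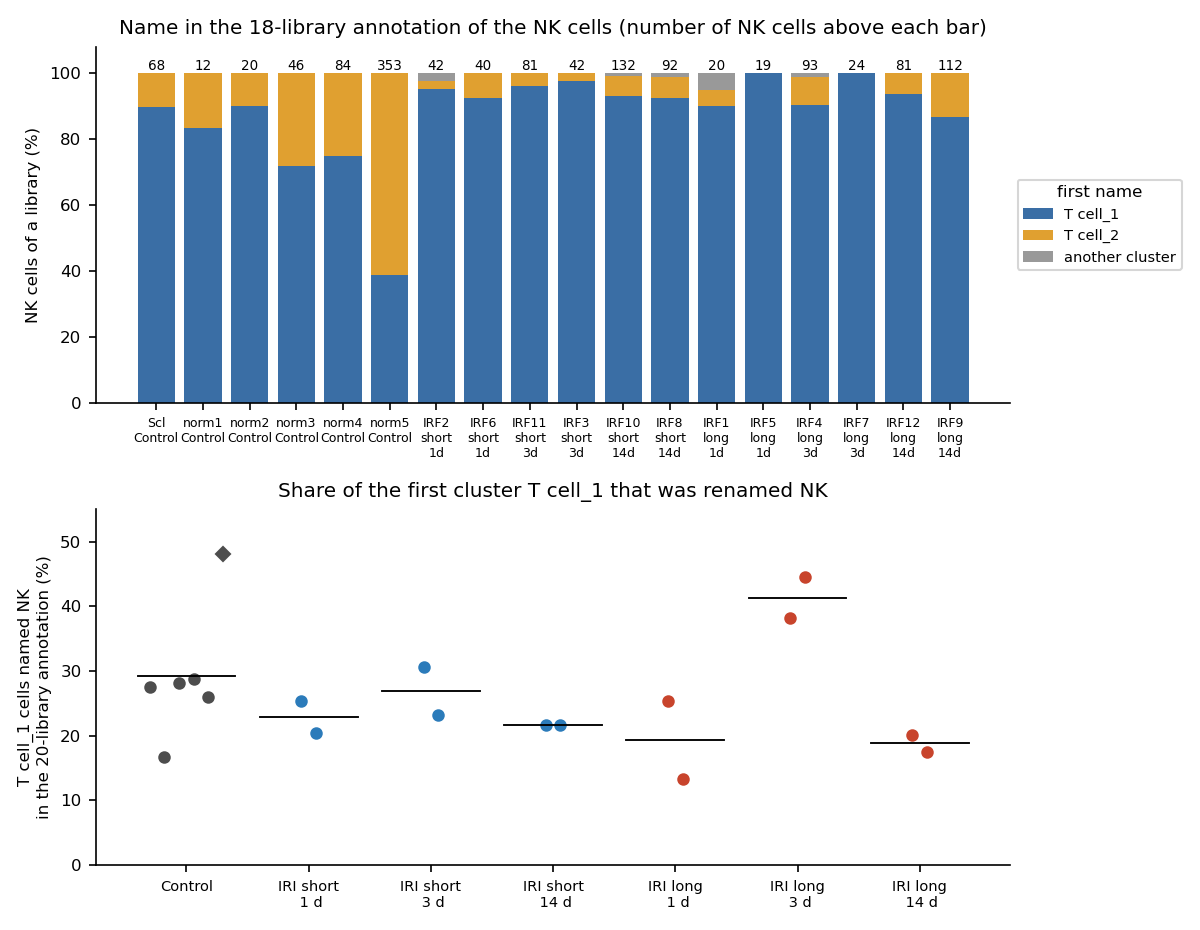
Upper panel, percent of the NK cells of each of 18 libraries that carried the name T cell_1, T cell_2 or another name in the 18-library annotation, with the number of NK cells above each bar. Lower panel, percent of T cell_1 cells of each library that were named NK, with lines for group means and a diamond for norm5 (48.1%); the pair of IRI long 3 d lies at 38.2% and 44.4%.

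Among the 16 libraries with 20 or more NK cells, the T cell_1 share averaged 73.1% ± 20.9 (SD, n = 5) in Control and 94.5% ± 2.18 (SD, n = 6) in IRI short, a difference of 21.5 points (exact permutation test, p = 0.00216, adjusted for 3 comparisons 0.00649). It lay between 12.9 points, without norm5, and 25.7 points when each library was left out in turn. In IRI long the share was 92.2% ± 5.08 (SD, n = 5), 19.1 points above Control (exact permutation test, p = 0.0476, adjusted 0.0714) and 10.5 points without norm5 (exact permutation test, p = 0.0952). IRI long and IRI short differed by -2.39 points (exact permutation test, p = 0.287). When only NK cells once named T cell_1 were counted, the NK fraction of all cells in IRI short was 0.189 points above Control (exact permutation test, p = 0.665).

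The share of T cell_1 that became NK varied less outside a few libraries. Control libraries other than norm5 gave 16.7% to 28.7%, IRI short libraries 20.3% to 30.6%, and IRI long libraries 13.3% and 25.4% at 1 d and 17.5% and 20.2% at 14 d. At 3 d after IRI long the values were 38.2% and 44.4%, above the range of every other library but norm5. These values were not tested.

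The NK cluster lay beside the T cell cluster in the deposited UMAP of 20 libraries, a map in 2 dimensions whose coordinates have no unit. The median position of NK cells was (-4.80, -6.93), against (-0.30, -7.06) for T cells. On the first axis the middle 95% of NK cells ran from -5.60 to -3.43 and that of T cells from -3.73 to 0.87, so these ranges met. Of the 30 nearest neighbours of NK cells, 94.4% were also NK, 5.41% were T cells and 0.183% were SMC, the smooth muscle cluster. For 1006 NK cells (67.2%) all 30 neighbours were NK, and 33 NK cells (2.21%) had under 50% NK neighbours. Conversely, 78 T cells (1.29%) had over 50% NK neighbours. The mean share of NK neighbours per library ranged from 83.2% (IRF5, 19 NK cells) to 99.4%, with a median of 94.8%.

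**Figure D5:**
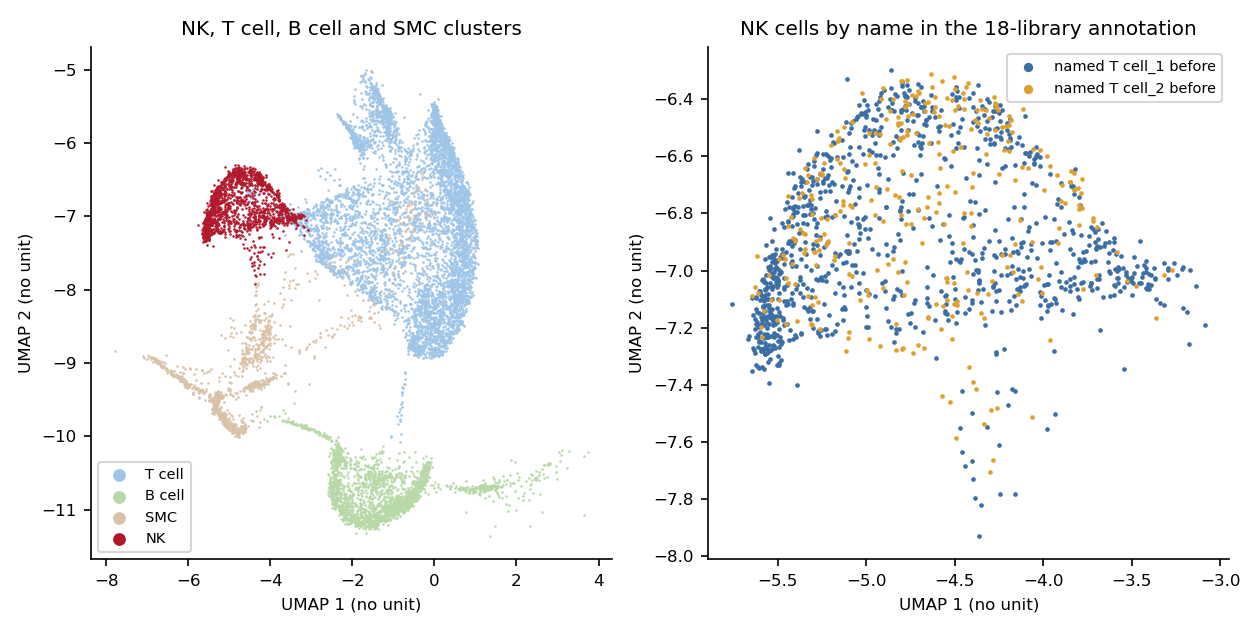
Left, UMAP positions (no unit) of the NK, T cell, B cell and SMC clusters within a window around NK; cells outside the window are not drawn. Right, NK cells alone, coloured by their first name. Cells once named T cell_1 and T cell_2 cover overlapping areas, and their mixing was not measured.

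Cells of both first names lay in overlapping areas of this map, with median positions of (-4.88, -6.96) for those once named T cell_1 and (-4.68, -6.78) for those once named T cell_2. In the 18-library map they had lain apart, at (-5.74, -8.86) and (-3.40, -10.2), and of their 30 neighbours there 38.5% and 57.0% were later named NK. Clusters were made on the same cells as these maps, so the positions describe the annotation and are no test of it.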

How the data were processed

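The authors aligned reads of 10X 3' libraries to mm10 with Cell Ranger, filtered cells on detected genes and mitochondrial share, integrated 18 libraries with LIGER, removed doublet-like cells and named Louvain clusters by hand. For the 20-library data the paper gives the same kinds of filters, doublet removal and LIGER integration, and another cell number than the files hold. The deposited files used here give for each cell a cluster name, a group and UMAP coordinates, which are treated as a score without unit. Cells were joined by name, and each library was assigned to its group through the group given for its cells. The members, lists and comparisons were chosen with earlier results of these data known. Named clusters are NK, T cell and B cell, the first clusters that hold 1% or more of NK cells, and the 3 clusters most often found among the 30 nearest neighbours (2 besides NK were found).

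Fractions were compared over libraries, not cells, with two-sided exact permutation tests, and with limma 3.58.1 (R 4.3.3, Benjamini-Hochberg over 19 clusters) on logits with 0.5 cells added. Lymphoid cells are T cell, B cell and NK, and immune cells add Macro, Neutro_1 and Neutro_2. Nothing in the labels says that libraries of a group are separate cultures, but the methods give 2 mice per condition and time, so n counts mice. Alternatives are given in the closing section.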

Additional observations from a re-analysis of the deposited data

Results flagged for a closer look

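In 3 measures the control library norm5 lay far from the other 5 control libraries by Dixon's criterion, which compares the gap to the nearest library with the range of the group. Its NK fraction was 5.30% of all cells, 46.3% of lymphoid cells and 48.9% of T and NK cells, and the gaps were 0.646, 0.634 and 0.661 of the range, above the 95% critical value for 6 libraries. The 3 measures share the same NK cells. Of 15 sets of libraries checked, these 3 were marked, and chance alone marks about 1 in 20. Among immune cells norm5 held 42.8% NK cells.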

How the results depend on the processing

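No paired analysis was possible because the cell names tie libraries to groups but not to the replicate numbers of the labels. The filter on small clusters kept 19 of 19 clusters. Values below are differences in percentage points, or limma logit changes of NK where stated, and the cause of each change was not tested unless given. For all cells, IRI short minus Control became 0.051 on the logit scale, 0.189 with NK cells once named T cell_1 only and 0.163 per 100 non-immune cells (0.980 without norm5, 0.434 with Fibro counted as immune, 1.27 with both). IRI long minus Control became 0.289 among cells other than myeloid and 0.698 per 100 non-immune cells (1.51, 1.65 and 2.49 under the same changes), and IRI long minus IRI short became 0.302 and 0.534 (1.21 with Fibro as immune). With Fibro as myeloid, the differences among immune cells were -12.5, -13.6 and -1.17 for IRI short and IRI long against Control and IRI long against IRI short. With norm5 as the only control library, IRI short and IRI long differed from it by -4.04 and -4.23 (all cells), -39.5 and -40.8 (immune cells) and -34.6 and -35.0 (lymphoid cells). IRI long minus IRI short among immune cells stayed at -1.31 without days but with p = 0.0996 (exact permutation test). The share of NK cells once named T cell_1 or T cell_2 together differed from Control by -0.704 in IRI short and -1.22 in IRI long.

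In limma, IRI short against Control became -0.0083 (arcsine scale), -0.62 (centred log-ratio), -1.69 (per immune cell) and -1.64 (barcode set as a term), and IRI long against Control became -2.31 (per immune cell) and -1.89 (barcode set). By day, the centred log-ratio gave -1.32, -0.28 and -0.26 for IRI short at 1, 3 and 14 d and -1.65, -0.24 and -0.087 for IRI long. Per immune cell the same changes were -2.31, -1.43 and -1.35, and -3.13, -1.63 and -2.17. With the barcode set they were -2.50, -1.18 and -1.25, and -2.96, -1.29 and -1.42. On the arcsine scale IRI long 14 d became -0.00033. IRI long against IRI short became 0.033 at 3 d and 0.17 at 14 d with the centred log-ratio, and the difference of the 14 d change became -0.0029 per immune cell.

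Leaving out each library in turn gave ranges of -0.776 to 0.223 (IRI short, all cells), -0.972 to 0.027 (IRI long, all cells), -1.67 to -1.02 (IRI long against IRI short, immune cells), -10.4 to -2.66 (IRI short, lymphoid cells; the value nearest 0 is that without norm5, and p = 0.0433 without norm1 by exact permutation), -10.7 to -3.03 (IRI long, lymphoid cells, the latter without norm5) and -1.33 to 0.730 (IRI long against IRI short, lymphoid cells). By day in all cells they were -0.335 to 0.664 (IRI short 3 d), -0.536 to 0.587 (IRI short 14 d), -0.583 to 0.518 (IRI long 3 d) and -0.685 to 0.314 (IRI long 14 d), and in lymphoid cells -6.21 to 1.503 (IRI long 3 d). The T cell_1 share of IRI long against Control ranged from 10.5 to 23.3, with exact permutation p of 0.0159 to 0.0952, so it did not pass with every library left out. The limma changes ranged from -0.19 to 0.39 (IRI short), -0.43 to 0.15 (IRI long) and -1.51 to -0.93 (IRI long 1 d) against Control, and from -0.36 to 0.15 at 3 d and -0.43 to 0.10 at 14 d for IRI long against IRI short. The comparison of 1 d with later days, the leave-out values by day, the count with T cell_1 only the per 100 non-immune values without norm5 and the counts of Fibro as myeloid or immune were added after seeing the data. Other alternatives kept direction and side of the threshold. Low NK numbers (12 to 24 in norm1, norm2, IRF1, IRF5 and IRF7) limit the precision of those libraries.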
